A study of Homo sapiens with 8 samples.

Results

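The genes of apolipoproteins and lipoprotein assembly were followed across liver cancer cells with and without acquired resistance to sorafenib, a multikinase inhibitor. Members were the genes whose Ensembl identifier is paired with 1 of the symbols APOA1, APOA2, APOB, APOC1, APOC2, APOC3, APOE, APOH, APOM and MTTP, which gave 10 of 63241 identifiers. Polyadenylated RNA was sequenced from HepG2 and Huh7, both established human liver cancer lines, in 8 libraries, 2 from the WT and 2 from the SR cells of each line. WT cells are the sensitive parental cells, and SR cells were derived from the same line under rising sorafenib concentrations. Levels are FPKM, fragment counts scaled by transcript length and library size, as the authors deposited them; the files hold no counts, so the depth behind a value is unknown. Nothing in the labels says whether the 2 libraries of a group came from separate cultures, so every p-value below measures the spread between these libraries, which may be technical.

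Apolipoproteins are the protein components of plasma lipoproteins, and hepatocytes are a main source of most of them. In the hepatocyte, the microsomal triglyceride transfer protein encoded by MTTP loads lipid onto nascent apolipoprotein B, and the particle leaves the cell as a very low density lipoprotein, while APOA1 and APOA2 are the main structural proteins on the surface of high density lipoprotein. The small exchangeable apolipoproteins move between particles, where APOC2 activates lipoprotein lipase, APOC3 restrains triglyceride clearance and APOE is a ligand for hepatic receptors.

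Some libraries did not resemble the other library of their group, and this bears on every comparison below. Across the 15173 genes that reached 1 FPKM in 2 or more libraries, Pearson's r of log2(FPKM + 1) was between 0.914 and 0.977 among 5 libraries: both of HepG2 WT, replicate 1 of HepG2 SR and replicate 2 of each Huh7 group. The Huh7 libraries of replicate 1, WT and SR, correlated at 0.965, and with those 5 at 0.731 to 0.783. HepG2 SR replicate 2 correlated with the 5 at 0.775 to 0.819 and with the Huh7 libraries of replicate 1 at 0.815 and 0.846. Replicate 2 of each group labelled Huh7 was thus closer to HepG2 WT libraries than to the other library of its own group. These correlations are across genes, which are not independent replicates. Replicate 2 of HepG2 SR and replicate 1 of both Huh7 groups are called the 3 libraries that stand apart, and the groups remain those of the labels. HepG2 WT replicate 2 differed in another way, with 38276 genes listed above 0 FPKM, against 27188 to 29071 in the other libraries. The paper states that short tandem repeat profiling authenticated all its cell lines. Whether the cell line labels of the 8 libraries are right was not tested here. Every Huh7 value and every difference between lines is thus that of libraries so labelled.

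Hepatocyte markers were checked first. The level of ALB, the gene of serum albumin, was 2139 and 3157 FPKM in HepG2 WT, 2867 and 4713 in HepG2 SR, 11.98 and 604 in Huh7 WT, and 42.3 and 2891 in Huh7 SR. AHSG, another secreted hepatocyte protein, was listed at 4.61 FPKM in Huh7 WT replicate 1 and at 29.5 in Huh7 SR replicate 1, and at 175 in HepG2 SR replicate 2, against 663 to 2919 in the other 5 libraries. FGG, a fibrinogen chain, ran the other way, at 1047 and 730 FPKM in the Huh7 libraries of replicate 1 and 798 in HepG2 SR replicate 2, against 3.20 to 126 elsewhere. The lowest ALB levels were those of the Huh7 libraries of replicate 1. The 14 hepatocyte markers summed to 5648 and 7207 FPKM in HepG2 WT, 7494 and 10242 in HepG2 SR, 2889 and 1905 in Huh7 WT, and 3261 and 7581 in Huh7 SR. In bulk RNA, fewer cells of a type and less RNA per cell cannot be told apart.

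Together the 10 members held 1.04% and 1.32% of all FPKM in HepG2 WT and 1.43% and 0.449% in HepG2 SR. In Huh7 the share was 0.130% and 0.466% in WT and 0.262% and 1.33% in SR. The highest-ranking member was APOA2 in 5 libraries, APOA1 in HepG2 WT replicate 1 and APOE in HepG2 SR replicate 2 and Huh7 WT replicate 1. APOM was last in all 8 libraries. All 10 members passed the filter on low values.

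**Figure D1:**
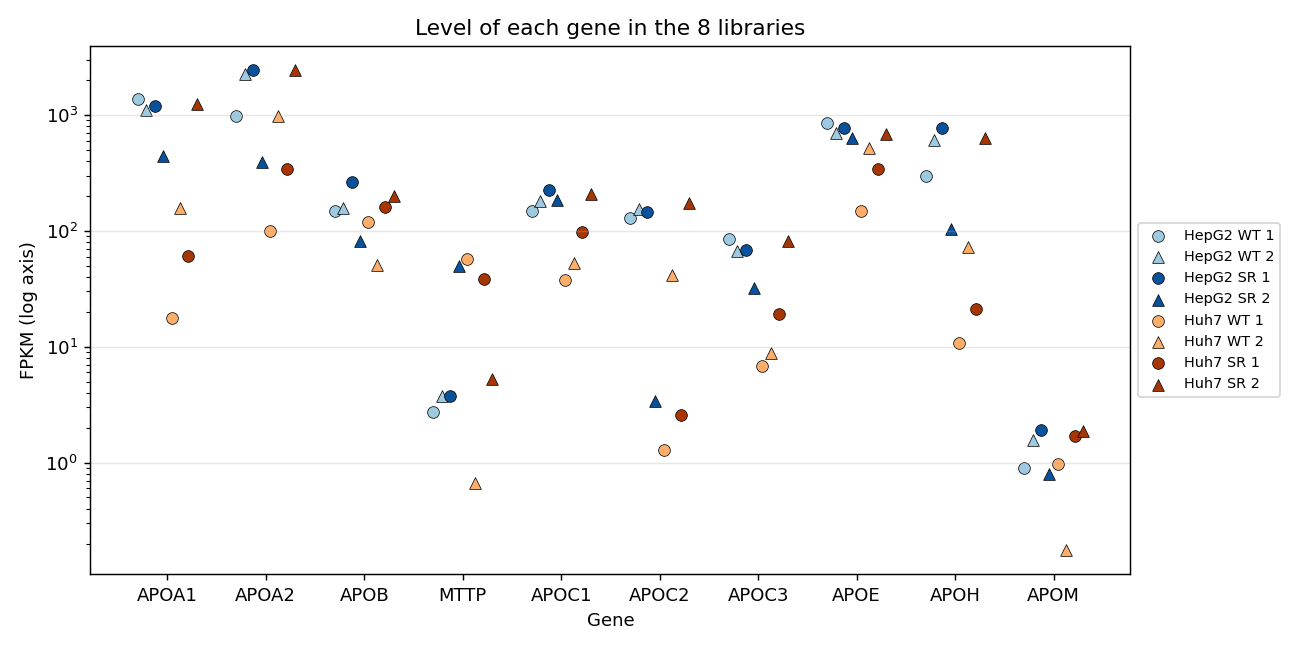
FPKM of each of the 10 members on a log axis, with a point for each library (circles are replicate 1, triangles replicate 2; colour gives the group). MTTP is high in the 3 libraries where APOC2 is low, and APOM lies under 2 FPKM throughout.

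In HepG2, APOA1, the main protein of high density lipoprotein, was listed at 1368 and 1107 FPKM for WT, then 1195 and 439 for SR. In Huh7 it stood at 17.7 and 158 FPKM in WT and at 60.7 and 1239.6 in SR. The WT and SR libraries overlapped in both lines, and the highest level was 77.4 times the lowest. APOA2, its partner on the particle, was listed at 987 and 2257 FPKM in HepG2 WT, 2452 and 397 in HepG2 SR, 98.9 and 974 in Huh7 WT and 342 and 2436 in Huh7 SR. Its groups overlapped in both lines as well, and within HepG2 SR and Huh7 SR the 2 libraries were further apart than the group means of WT and SR. APOM, which carries sphingosine-1-phosphate on high density lipoprotein, was low: HepG2 WT had 0.893 and 1.57 FPKM, HepG2 SR 1.92 and 0.793, which overlapped. In Huh7 it was listed at 0.981 and 0.175 FPKM in WT and at 1.68 and 1.88 in SR, so both SR libraries lay above both WT libraries. APOM overlaps BAG6 on the opposite strand, and without a stated strand rule their reads cannot be told apart.

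In HepG2, APOB, the structural protein of very low density lipoprotein, was listed at 149 and 157 FPKM for WT, then 264 and 82.4 for SR, with the SR libraries on either side of the WT libraries. In Huh7 it stood at 119 and 50.9 FPKM in WT and at 162 and 201 in SR, without overlap. MTTP was listed at 2.72 and 3.72 FPKM in HepG2 WT, 3.73 and 50.3 in HepG2 SR, 57.7 and 0.669 in Huh7 WT and 38.1 and 5.28 in Huh7 SR. The levels of 38.1 to 57.7 FPKM belonged to the 3 libraries that stand apart, and the other 5 lay between 0.669 and 5.28. MTTP overlaps TRMT10A on the opposite strand, exons included, and TRMT10A lay between 1.82 and 3.92 FPKM in the 8 libraries. As for APOM, reads of the overlap cannot be told apart without a stated strand rule. This limit bears most on the 5 libraries where MTTP was low, and on their ratios of MTTP to APOB.

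APOC1 encodes an exchangeable apolipoprotein that inhibits lipoprotein uptake. In HepG2, APOC1 was listed at 147 and 181 FPKM for WT, then 226 and 185 for SR. In Huh7 it stood at 37.7 and 52.9 FPKM in WT and at 98.4 and 208 in SR. Both SR libraries lay above both WT libraries in each line, in HepG2 by a narrow gap. APOC2 was listed at 130 and 153 FPKM in HepG2 WT, 145 and 3.42 in HepG2 SR, 1.29 and 41.5 in Huh7 WT and 2.59 and 176 in Huh7 SR. Its low levels, 1.29 to 3.42 FPKM, were those of the 3 libraries that stand apart. The readthrough gene APOC4-APOC2 overlaps APOC2 on the same strand, so reads could be shared; it had 0.0940 to 0.508 FPKM in those 3 libraries and 3.65 to 20.1 in the other 5. In HepG2, APOC3 was listed at 84.4 and 67.6 FPKM for WT, then 68.0 and 32.0 for SR, which overlapped. In Huh7 APOC3 stood at 6.83 and 8.89 FPKM in WT and at 19.3 and 82.2 in SR, which did not.

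APOE varied less, at 846 and 694 FPKM in HepG2 WT, 774 and 633 in HepG2 SR, 148 and 522 in Huh7 WT and 342 and 681 in Huh7 SR. APOH, or beta-2-glycoprotein I, a plasma protein that binds anionic phospholipid, was listed at 298 and 608 FPKM in HepG2 WT, 767 and 104 in HepG2 SR, 10.7 and 72.6 in Huh7 WT and 21.2 and 635 in Huh7 SR. Both genes overlapped between WT and SR in each line. Over the 8 libraries, the SD of log2(FPKM + 1) was 2.75 for APOC2, 2.35 for APOA1 and 2.31 for APOH, and 0.83 for APOE and 0.74 for APOB. The median over the 6410 tested genes with a mean FPKM of at least 10 was 0.49. The 9 members at that level, all but APOM (mean FPKM 1.24), were above it.

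Promoters were examined because the members differ between libraries. The RefSeq table (GRCh38.p14) matched 7 of 10 members with 10 starts, and APOA1, APOB and APOC3 had no entry. The 250 bases before each start were searched on both strands for CAAAGTCCA and CAAAGGTCA (cores bound by HNF4A), GTTAATNAT (HNF1) and TGTTTAC (FOXA factors). These letters occurred in 0.325%, 0.339%, 0.723% and 2.98% of the 35116 promoters of the table. The FOXA letters were found before 1 of the 10 starts, that of APOA2, 42 bases before it on the strand opposite to the gene. The other 3 motifs were found before none (0 of 10). The windows of APOC1, APOC2 and APOM lay wholly within annotated exons, so no base outside an exon was searched for them. The other windows lay partly within exons. The stretches below are shown for APOA2, which holds that match, and for MTTP, which was high in the 3 libraries that stand apart, where APOC2 was low. Each is the longest stretch of its window outside every annotated exon, the first at chr1:161223632-161223878 on the minus strand just before APOA2, the second at chr4:99574574-99574706 on the plus strand inside the MTTP gene, before its start 2. Capitals mark the match.
APOA2: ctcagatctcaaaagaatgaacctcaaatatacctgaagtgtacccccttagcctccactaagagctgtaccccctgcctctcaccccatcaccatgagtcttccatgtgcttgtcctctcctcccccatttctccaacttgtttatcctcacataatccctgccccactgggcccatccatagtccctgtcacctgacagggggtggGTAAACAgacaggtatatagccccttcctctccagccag
MTTP: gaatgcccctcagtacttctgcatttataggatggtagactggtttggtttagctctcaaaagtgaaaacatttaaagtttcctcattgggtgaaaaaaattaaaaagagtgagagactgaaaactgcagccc
A match is a description, not a site or a cause, and the lack of one says only that these letters are not in the window.

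Ratios within a library do not depend on its scaling. The ratio of APOC2 to APOC1, members of one gene cluster, was 0.882 and 0.844 in HepG2 WT, 0.640 in replicate 1 of HepG2 SR, and 0.786 and 0.847 in replicate 2 of Huh7 WT and SR. In the 3 libraries that stand apart it was far lower, at 0.0185 for HepG2 SR, 0.0343 for Huh7 WT and 0.0263 for Huh7 SR. The ratio of MTTP to APOB was 0.610, 0.484 and 0.235 in these 3, in that order, and between 0.0132 and 0.0263 in the other 5. The ratio of APOC3 to APOA1 was 0.386 and 0.318 in the Huh7 libraries of replicate 1 and between 0.0564 and 0.0728 in the other 6, HepG2 SR replicate 2 included. In Huh7, each of these ratios was high in 1 library and low in the other, for WT and for SR alike.

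**Figure D2:**
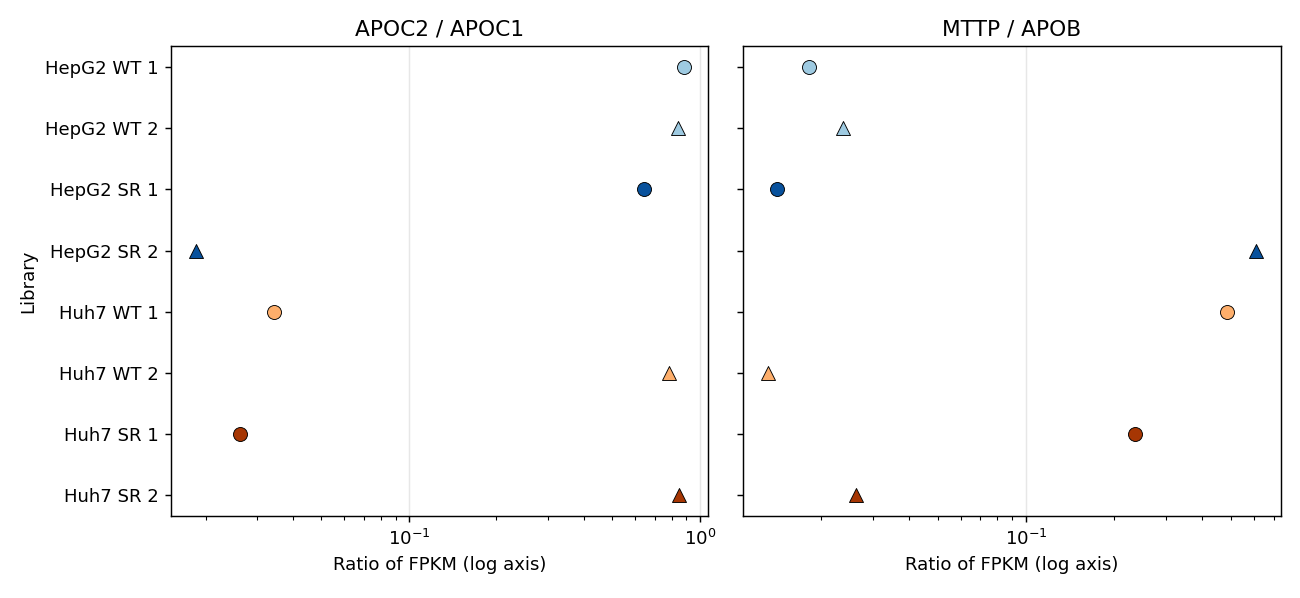
Ratio of FPKM within each library on a log axis, for APOC2 over APOC1 (left) and MTTP over APOB (right), with a row for each library. The 3 libraries that stand apart are low in the first ratio, 0.0185 to 0.0343, and high in the second, 0.235 to 0.610.

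The first question was whether SR cells differed from WT cells in HepG2. The test was that of limma on log2(FPKM + 1), and a gene was called when its unadjusted p was under 0.05 and its log2 fold change reached 0.5 or lay under -0.5. Of the members, 0 of 10 were called, where 2.14% of all tested genes were called in either direction. From limma, 0 members and 325 of all genes had an unadjusted p under 0.05, and 0 genes an adjusted one. The member median log2 fold change was -0.36, against -0.03 over all tested genes, and 3 of 10 members had a positive value, MTTP, APOC1 and APOM, the last at 0.05 and at -0.015 with values rescaled to TPM. MTTP had a log2 fold change of 1.89 (SE 1.85) and APOC2 of -2.48 (SE 2.36), each close in size to its SE. Both SR libraries lay above both WT libraries for 2 of 10 members, MTTP, by 3.73 against 3.72 FPKM at the nearest, and APOC1 (18.1% of all tested genes), and below for 0 of 10 (20.1% of all tested genes). Without HepG2 SR replicate 2 the member median was 0.29, MTTP was 0.17 and APOC2 was 0.04, so the direction of the median rests on that library.

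In Huh7, the mean of log2(FPKM + 1) was higher in SR for all 10 members, and 2 passed the test. A replicate block within the line, chosen after seeing the data, called 8 members, beside 1156 of 15173 tested genes. It called 0 genes by adjusted p, and that same numbers mark pairs is not stated. For MTTP the mean FPKM was lower in SR, at 21.7 against 29.2. APOC1 rose by a log2 fold change of 1.66 (SE 0.43, a fold of 3.15) and APOC3 by 2.22 (SE 0.69, a fold of 4.67), so 2 of 10 members were called, where 0.942% of all tested genes were called higher. Their unadjusted p from limma were 0.0069 and 0.0154, and their Benjamini-Hochberg adjusted p over all tested genes was 1 for both. From limma, 0 genes had an adjusted p under 0.05 here, and 283 had an unadjusted one. APOC1 (ENSG00000130208) lies at chr19:44914247-44919349 and APOC3 (ENSG00000110245) at chr11:116829706-116833072 on GRCh38. Both SR libraries lay above both WT libraries for 4 of 10 members, APOB, APOC1, APOC3 and APOM (9.06% of all tested genes), and below for 0 of 10 (12.9% of all tested genes).

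The other members in Huh7 had log2 fold changes of 2.35 (SE 1.52) for APOA1, 2.02 (SE 1.73) for APOH, 1.55 (SE 1.44) for APOA2 and 1.35 (SE 2.36) for APOC2. APOB had 1.20 (SE 0.63), APOM 0.87 (SE 0.45), APOE 0.79 (SE 0.64) and MTTP 0.66 (SE 1.85). The member median was 1.45, against -0.06 over all tested genes. The value of APOC3 was 2.05 and no longer called without Huh7 WT replicate 1, and 1.20 and not called without Huh7 SR replicate 2. The value of APOA1 was 0.18 without Huh7 SR replicate 2 and 4.51 without Huh7 SR replicate 1. The sign turned for APOA2, APOC2 and APOE without Huh7 WT replicate 1, for MTTP without Huh7 WT replicate 2 or Huh7 SR replicate 1, and for APOC2 and APOH without Huh7 SR replicate 2. Between same-numbered Huh7 libraries, SR lay above WT for 9 of 10 members in replicate 1 and for 10 of 10 in replicate 2. The shares of all tested genes were 49.9% and 41.3%, and a pairing by number is not stated. Without Huh7 SR replicate 2 the member median was 0.55 and 1 member, APOC1, was called, beside 205 of all tested genes. Without Huh7 SR replicate 1 the median was 2.58 and 4 members were called, APOA1, APOC1, APOC3 and APOH, beside 568 of all tested genes against 283 with all libraries. Without the 3 libraries that stand apart, 1 library a group is left in Huh7 and no test was run; there all 10 members were higher in SR, with a median of 1.96, and APOC1 was 1.95 and APOC3 3.07.

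**Figure D3:**
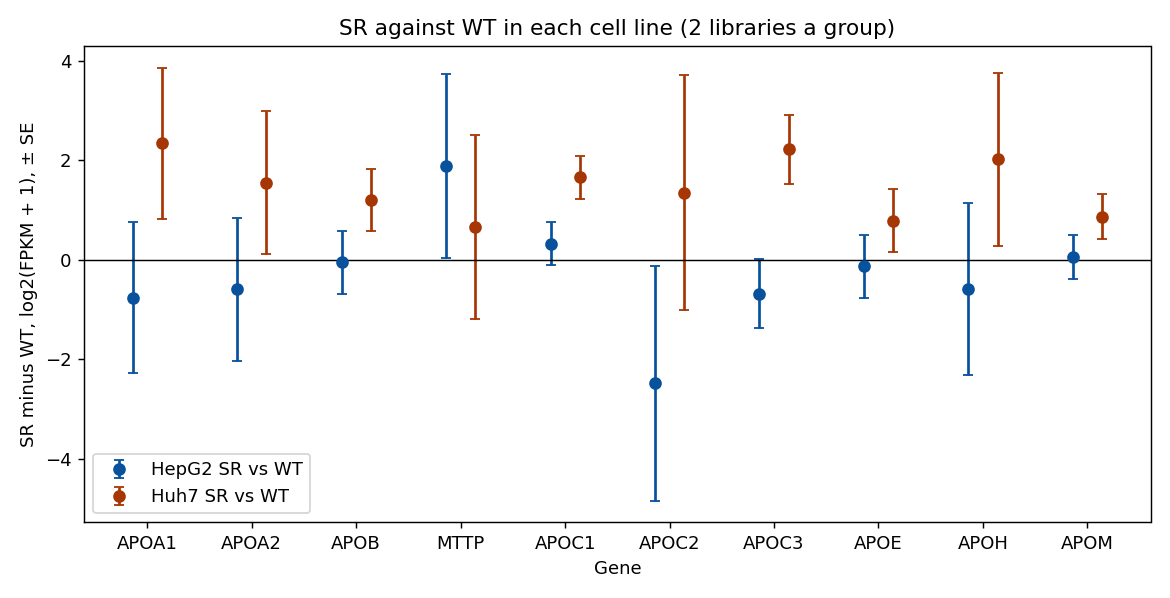
Difference in log2(FPKM + 1) between SR and WT for each member, in HepG2 (blue) and Huh7 (red), with the SE from limma as error bars and 2 libraries a group. All 10 Huh7 values are above 0, from 0.66 for MTTP to 2.35 for APOA1, and the HepG2 values run from -2.48 for APOC2 to 1.89 for MTTP.

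The difference between the lines was tested as a contrast of the contrasts. SR minus WT was greater in Huh7 than in HepG2 for APOC3, by 2.90 (SE 0.98, unadjusted p = 0.0216, adjusted p = 1 from limma), so 1 of 10 members was called, where 0.369% of all tested genes were called in this direction. The call of APOC3 was lost without HepG2 WT replicate 1, without HepG2 SR replicate 2 or without Huh7 WT replicate 1, at 2.75, 2.37 and 2.74. Without Huh7 SR replicate 1, 4 members were called beside 465 of all tested genes, against 92 with all libraries. Without HepG2 SR replicate 1 or Huh7 WT replicate 2, 2 members were called, beside 945 and 103 of all tested genes. The value of APOC3 was 1.89 without Huh7 SR replicate 2 and 3.22, with no test run, without the 3 libraries that stand apart. From limma, 92 of all genes had an unadjusted p under 0.05 for this difference and 0 an adjusted one. The member median was 1.74, against -0.04 over all tested genes.

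Over both lines, SR against WT gave a log2 fold change of 0.99 (SE 0.31) for APOC1, with an unadjusted p of 0.0151 and an adjusted p of 0.998 from limma. It was the 1 of 10 members called, where 1.90% of all tested genes were called higher. The call was lost without HepG2 WT replicate 1, at 0.92, where 193 of all tested genes were called against 596 with all libraries. Leaving out any one of the 3 libraries that stand apart gave 2 called members, beside 250 (HepG2 SR), 1015 (Huh7 WT) and 518 (Huh7 SR) of all tested genes. From limma, 597 of all genes had an unadjusted p under 0.05 and 0 an adjusted one. Without the 3 together, with no test run, APOC1 was 1.21. The member median was 0.65, against -0.05 over all tested genes, and it was 0.17 without Huh7 SR replicate 2, 0.27 without HepG2 SR replicate 1 and 0.35 without Huh7 WT replicate 1, and 1.01 without HepG2 SR replicate 2 or Huh7 SR replicate 1. An exact two-sided permutation test of the 4 SR against the 4 WT libraries gave p = 0.171 for APOC1 and for APOM and between 0.343 and 0.971 for the other 8 members, where the smallest p that 4 against 4 allow is 0.0286. This test exchanged libraries across both lines, so differences between the lines add to its spread.

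Between the parental cells, the mean of log2(FPKM + 1) was lower in Huh7 WT than in HepG2 WT for 9 of 10 members, all but MTTP. Over all tested genes, it was higher in Huh7 WT for 8164 of 15173. The libraries overlapped for APOM, at 0.981 and 0.175 FPKM in Huh7 WT against 0.893 and 1.57 in HepG2 WT. They also did for MTTP, at 57.7 and 0.669 FPKM against 2.72 and 3.72. APOA1 was lower by a log2 fold change of -4.50 (SE 1.52), APOC3 of -3.12 (SE 0.69) and APOC1 of -1.85 (SE 0.43), and these 3 of 10 members were called, where 2.66% of all tested genes were called lower. Their adjusted p from limma was 0.827; 669 of all genes had an unadjusted p under 0.05 and 0 an adjusted one. The member median was -2.05, against 0.06 over all tested genes. The call of APOA1 was lost without Huh7 WT replicate 1, at -2.96, without either HepG2 WT library, at -4.35 and -4.65, and with no filter on low values. Without Huh7 WT replicate 2, 6 members were called, and calls over all tested genes went from 669 to 1247. Since the Huh7 WT libraries did not resemble each other, a difference between lines and a difference between libraries cannot be told apart here.

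The other genes of the pathway were described by lists, whose medians stand beside -0.03 in HepG2 and -0.06 in Huh7 over all tested genes. Of those 15173 genes, 325 were called in HepG2, 283 in Huh7 and 596 over both lines. With shares that small, 0 called says little about a list of this size, here and for the lists below. Of 25 genes for very low density lipoprotein assembly and secretion, 0 were called in HepG2. In Huh7, SMLR1 rose by 2.06 and SEC24D, a coat protein of vesicles leaving the endoplasmic reticulum, fell by 1.29 on the log2 scale. The median of that list was -0.15 in HepG2 and -0.32 in Huh7. The SMLR1 level was 2.36 and 1.63 FPKM in Huh7 WT, then 5.78 and 21.7 in Huh7 SR. P4HB, which encodes the other subunit of the MTTP complex, lay between 383 and 746 FPKM in all 8 libraries. DGAT1, an enzyme of triglyceride synthesis, was called higher over both lines, at 0.92 (SE 0.33).

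Among 12 tested lipoprotein receptors and their regulators, the genes called included VLDLR, which binds particles carrying APOE and fell in Huh7 SR by 1.16. The VLDLR level was 13.8 and 7.40 FPKM in Huh7 WT, then 3.01 and 5.25 in Huh7 SR, without overlap. In HepG2, VLDLR stood at 6.39 and 10.4 FPKM in WT and at 3.82 and 4.27 in SR, also without overlap, and was not called. LRP8, another receptor for APOE, rose in HepG2 SR by 0.97. In Huh7, LRP8 stood at 10.5 and 7.62 FPKM in WT and at 8.09 and 6.27 in SR, which overlapped. The list median was -0.28 in HepG2 and 0.14 in Huh7. Among 9 tested other apolipoproteins 0 were called in either line, with medians of -1.09 in HepG2 and 0.19 in Huh7, and CLU stood at 769 FPKM in HepG2 SR replicate 2 and between 42.8 and 104 in the other 7 libraries. Among 11 tested genes of high density lipoprotein and plasma remodelling 0 were called, with medians of -0.55 and 0.32.

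Transcription factors and receptors that act on apolipoprotein genes were taken as a list of 23, all tested. CEBPA rose in both lines, by 1.33 in HepG2 and by 1.32 in Huh7, from 17.9 and 27.2 FPKM to 41.5 and 78.2 in HepG2 and from 12.001 and 14.5 to 42.9 and 27.4 in Huh7. HNF4A, a main activator of hepatocyte genes, rose in Huh7 by 0.96, from 32.2 and 22.2 FPKM in WT to 55.7 and 50.2 in SR, and CEBPB fell by 1.42. In HepG2 SR, HNF4A stood at 65.4 and 51.0 FPKM against 68.5 and 37.1 in WT. NR1H4, the bile acid receptor, was called higher over both lines, at 1.66 (SE 0.67), and stood at 85.9 FPKM in HepG2 SR replicate 2 against 1.42 to 19.8 in the other 7 libraries. The list median was 0.36 in HepG2 and 0.38 in Huh7. The adjusted p of every list gene in these comparisons was at least 0.956 in HepG2 and 1 in Huh7 from limma.

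**Figure D4:**
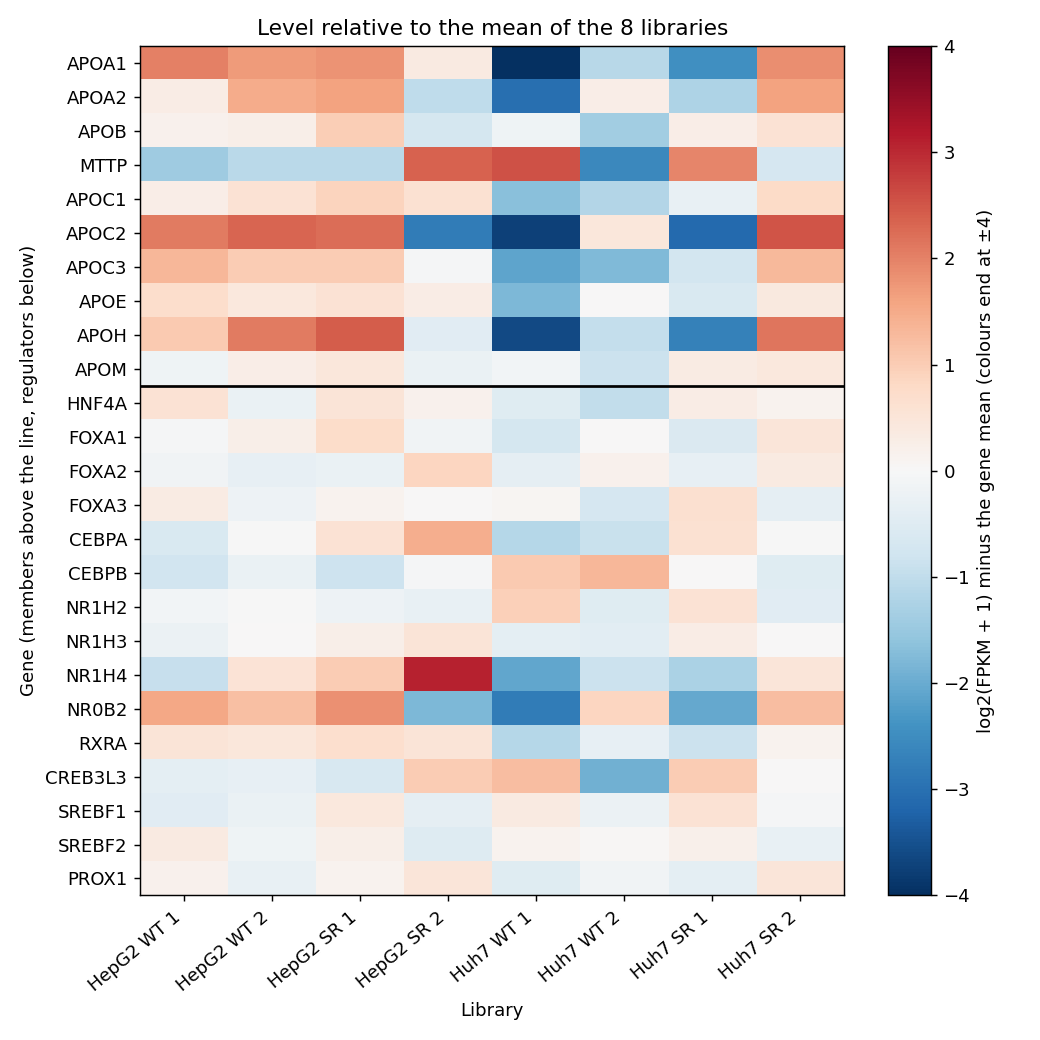
Level of each member (above the line) and of the 15 regulators with a mean FPKM of at least 10 (below), as log2(FPKM + 1) minus the mean of that gene over the 8 libraries. Columns are libraries; red is above and blue below the gene mean. NR0B2 is low in the same 3 libraries as APOC2, at 1.79 to 4.53 FPKM.

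Markers of other cell types were read in the same way. Of the hepatocyte markers, TF rose in Huh7 SR by 2.13, and AMBP was called higher over both lines, at 0.69; the list median was 0.56 in HepG2 and 1.69 in Huh7. All 14 had a higher mean of log2(FPKM + 1) in Huh7 SR, while the mean FPKM of FGG, and of FGB and CPS1, named after their values were seen, was lower there. The part of these markers in the values of the members was not tested. LYZ, which macrophages and some epithelia express, rose in Huh7 SR by 2.51 and was the most abundant of the 6 macrophage markers in every library, at 44.2 to 1058 FPKM, while PTPRC, named after its values were seen because it marks all leukocytes, was at most 0.0258 FPKM. The macrophage markers summed to 245 and 293 FPKM in HepG2 WT, 906 and 830.4 in HepG2 SR, 62.7 and 73.3 in Huh7 WT, and 84.3 and 1065 in Huh7 SR, nearly all of it LYZ but for Huh7 WT replicate 2. KRT19, a bile duct keratin, was listed at 0.179 to 2.37 FPKM in the 3 libraries that stand apart and at 155 to 760 in the other 5. The 4 bile duct markers summed to 15.5 to 65.3 FPKM in those 3 and to 308 to 904 in the other 5. The 5 fibroblast markers summed to 0.444 to 8.90 FPKM in those 3 and to 25.6 to 62.8 in the other 5, where ACTA2 was the most abundant. The stellate cell and fibroblast marker DCN was at most 0.0335 FPKM, the adipocyte markers were at most 0.230, and LEP was listed at 0 in all 8. Among endothelial markers PECAM1 lay between 0.517 and 4.28 FPKM, and among enterocyte markers VIL1 lay between 11.02 and 116 while SI was at most 0.0536. CDX2, at 17.9 FPKM, was above VIL1 in HepG2 SR replicate 2 alone of the 8. None of the tested bile duct, enterocyte, fibroblast or endothelial markers was called between SR and WT (0 genes), of which 4 of 4, 2 of 5, 2 of 5 and 1 of 4 were tested. Their medians over these few genes were 0.27, 0.39, 0.34 and -0.48 in Huh7 and -0.98, 0.18, -1.91 and 0.35 in HepG2.

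Several members are neighbours. On GRCh38, APOC3 and APOA1 lie within 8.25 kb on chromosome 11, in opposite orientation, and APOE, APOC1 and APOC2 lie within 43.8 kb on chromosome 19, on the plus strand. Of 13 tested genes near these clusters, 0 were called in either line alone, and RELB was called lower over both lines, at -1.06. TOMM40, beside APOE, lay between 30.9 and 73.7 FPKM, and APOA5 and APOA4, beside APOC3, ran from 0.0262 to 30.3 and from 0.0553 to 9.49 FPKM. APOA5 was under 1 FPKM in the 3 libraries that stand apart.

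The genes with the most similar profiles were found by the root mean square difference of log2(FPKM + 1), centred on the mean of each gene over the 8 libraries, against 6409 tested genes with a mean of 10 FPKM or more. APOC3 was nearest to SMLR1, at 0.23, then RASSF4 at 0.44 and SERPINA6 at 0.46. APOE was nearest to NDUFAF8, EBPL and ACAP3, at 0.21, 0.23 and 0.24. APOB was nearest to FOXRED2, SCARB1 and SLC25A10, at 0.25, 0.26 and 0.31. MTTP was nearest to ANXA2P2, SLC29A2 and PLAAT3, at 0.42, 0.46 and 0.56. APOA1 was nearest to SLC38A3, to the member APOH and to ENC1, at 0.54, 0.57 and 0.58.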

How the data were processed

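The authors deposited FPKM for 63241 gene identifiers in each of 8 libraries made from polyadenylated RNA. The submitters' processing notes name fastp 0.20.0 and GRCh38; the aligner, the quantification tool and the annotation are not given in the sources used here. Samples were grouped by their labels; that same-numbered libraries are pairs was not established. FPKM are not counts, so log2(FPKM + 1) was fitted with lmFit and eBayes (trend on) of limma 3.58.1, run in R 4.3.3, with a mean for each of 4 groups and 4 residual degrees of freedom. The 15173 genes tested reached 1 FPKM in 2 or more libraries. Fold changes on this scale understate those of low genes. P-values were adjusted by Benjamini-Hochberg over all tested genes. The fit was also run on simulated data with known changes and noise drawn independently for each library. That simulation held no libraries that stand apart, so it cannot show how the fit fares with them. A symbol was paired with 62666 identifiers; GENCODE release 29, which holds 58228 of them, gave positions and overlaps. Tables and figures were made in Python 3.11.15 (pandas 2.3.3, NumPy 2.4.6) with matplotlib 3.10.9.

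Named genes were all members, up to 5 genes of highest mean in each list, list genes called between SR and WT, regulators with a mean of 10 FPKM or more, and the 3 nearest genes of 5 members. Members and lists were chosen with earlier results of these data known, and so was the leaving out of the 3 libraries that stand apart. The other alternatives were a pseudocount of 0.1, a filter at 0.1 FPKM or none, TPM or quantile scaling, each line fitted alone, a block for the replicate number (also within each line, chosen after seeing the data), eBayes with no trend, calls by adjusted p, and each library left out in turn. An estimate of depth from the spacing of low FPKM values was also tried; its search was replaced after its first values were seen and with earlier estimates known, so no depth is given.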

Additional observations from a re-analysis of the deposited data

Results flagged for a closer look

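APOC3 differed between the lines in its contrast of SR with WT. The difference, SR minus WT in Huh7 minus the same in HepG2, was 2.90 on the log2 scale (adjusted p = 1 from limma), with both Huh7 SR libraries above both Huh7 WT libraries and the HepG2 groups overlapping. It was the 1 member of 10 called, where 0.369% of all tested genes were called in this direction. The call was lost without HepG2 WT replicate 1 (2.75), HepG2 SR replicate 2 (2.37) or Huh7 WT replicate 1 (2.74). Without Huh7 SR replicate 2 the difference was 1.89 and still called.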

How the results depend on the processing

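Under another pseudocount, filter or scaling, each line fitted alone, a replicate block and eBayes with no trend, members kept their direction in HepG2 and Huh7, except APOM in HepG2, at -0.015 with TPM; the cause was not tested. The number called matched that of all 8 libraries under these, except between parental lines with no filter, where it was 2, and with a block within each line. By adjusted p, 0 members were called in every comparison, in place of 2 in Huh7, 1 over both lines, 3 between parental lines and 1 for the difference between lines, since that rule is stricter. With a replicate block shared by both lines, members called were 0, 2, 1, 3 and 1, from HepG2 to the difference. Calls over all genes were 328 in HepG2, 234 in Huh7, 516 over both lines, 565 between parental lines and 91 for the difference. Deviations of same-numbered WT and SR libraries correlated across genes at 0.125 in HepG2 and 0.796 in Huh7, and deviations of HepG2 SR ran against those of Huh7, at -0.488 and -0.562. A replicate block within each line, chosen after seeing the data and with 1 residual degree of freedom a line, called 8 members in Huh7, all higher in SR and all but MTTP and APOE, where 1156 of 15173 genes were called, 622 of them higher; in HepG2 it called 0 members and 715 genes. By adjusted p it called 0 genes in either line, the smallest adjusted p of a member being 0.522. In Huh7, SR lay above WT in FPKM for 9 of 10 members in replicate 1 (49.9% of all tested genes) and 10 of 10 in replicate 2 (41.3%); in HepG2 for 7 (49.0%) and 2 (46.9%). That same numbers mark pairs is not stated, and the cause was not tested.

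With each library left out in turn, the lone library of a group is assumed to vary like the others. Members called ran from 1 to 4 in Huh7, 0 to 2 over both lines, 2 to 6 between parental lines and 0 to 4 for the difference, and were 0 in HepG2 each time. Calls over all genes ran from 154 to 818 in Huh7, 193 to 1277 over both lines, 171 to 1247 between parental lines, 24 to 945 for the difference and 57 to 1749 in HepG2. The Huh7 median ran from 0.55 to 2.58, the HepG2 median from -1.05 to 0.29, the median over both lines from 0.17 to 1.01 and that between parental lines from -2.82 to -1.59. In Huh7, APOA1 ran from 0.18 to 4.51 and APOC3 from 1.20 to 3.24. In HepG2, log2 fold changes that turned sign ran from -1.908 to 0.715 for APOA2, -0.885 to 0.781 for APOB, -5.006 to 0.041 for APOC2, -0.274 to 0.016 for APOE, -2.024 to 0.849 for APOH and -0.298 to 0.406 for APOM. In Huh7 they ran from -0.093 to 3.195 for APOA2, -1.906 to 3.231 for MTTP, -1.46 to 4.161 for APOC2, -0.114 to 1.694 for APOE and -0.403 to 4.437 for APOH. The cause was not tested. Without the 3 libraries that stand apart, values only, the member median was 0.29 in HepG2, 1.96 in Huh7, 1.13 over both lines and -1.59 between parental lines.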
